A study of Mus musculus with 3 samples.

Results

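LSD1 chromatin reads on mouse chromosome X were compared between cells at day 20 of reprogramming without Shield1, called LowK, and the fibroblasts they started from, called MEF. The comparison took 2 of the 3 libraries of the series, chosen by their labels. MEF is mouse embryonic fibroblasts at day 0, without vector or Shield1. LowK is fibroblasts carrying the vector SeVdp(fKOSMaB), kept without Shield1. The remaining library, MidK, is the same cells with 30 nM Shield1 at day 20, and its values are given only beside those of LowK and MEF. Each group has 1 library, so no difference below has a replicate check and no p-value was computed. The sources used here do not state the animals, their sex or the strain of the variant allele. Expression was not measured in these files, so the cell type named in the labels was not checked against marker genes. A difference between the libraries may lie in all cells or in some of them, and these cannot be told apart in bulk chromatin.

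LSD1, encoded by Kdm1a, is a histone demethylase that removes methyl groups from the lysine of histone H3 that marks active promoters and enhancers. It acts in complexes with histone deacetylases and CoREST, and it is also found at promoters and enhancers of active genes. SeVdp vectors are based on a Sendai virus that persists in the cytoplasm without integrating. In vectors of this kind, KLF4 is fused to a destabilising domain, so that the protein is degraded unless Shield1 is present. KLF4 is one of the 4 factors used to return fibroblasts to pluripotency, together with OCT4, SOX2 and c-MYC. In female cells 1 chromosome X is silenced through the RNA Xist, some genes escape that silencing, and full reprogramming reactivates the silent copy.

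LowK and MEF differed in read level at many gene starts, and the starts that were higher or lower differed in CG content. The 250 bases upstream of 4 starts with higher LowK levels and 3 with lower levels are printed from RefSeq's table for GRCm38.p6, 5′ to 3′ on the transcribed strand, with each CG dinucleotide in capitals. These 4 were picked among higher starts that are rich in CG dinucleotides. The 3 lower starts were picked without that condition, so the contrast in the printed stretches follows in part from the choice. Of all 97 higher starts, 61 met the CpG rule given below and 36 did not. Ddx3x (an RNA helicase), Hprt (purine salvage), Eif2s3x (translation initiation) and Ofd1 (a centriole protein) have 22, 17, 19 and 21 CG dinucleotides there.
Ddx3x, chrX:13280772-13281021, plus strand: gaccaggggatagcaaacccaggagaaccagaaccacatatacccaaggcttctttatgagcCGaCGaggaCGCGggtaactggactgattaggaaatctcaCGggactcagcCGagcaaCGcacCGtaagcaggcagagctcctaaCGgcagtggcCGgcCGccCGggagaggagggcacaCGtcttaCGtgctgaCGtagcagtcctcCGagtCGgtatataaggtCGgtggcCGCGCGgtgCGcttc
Hprt, chrX:52987828-52988077, plus strand: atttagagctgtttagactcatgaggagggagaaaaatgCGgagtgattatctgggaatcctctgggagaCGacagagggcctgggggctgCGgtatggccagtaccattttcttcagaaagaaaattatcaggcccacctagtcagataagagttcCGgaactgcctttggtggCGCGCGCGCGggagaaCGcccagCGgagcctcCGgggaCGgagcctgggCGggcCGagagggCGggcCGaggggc
Eif2s3x, chrX:94212652-94212901, minus strand: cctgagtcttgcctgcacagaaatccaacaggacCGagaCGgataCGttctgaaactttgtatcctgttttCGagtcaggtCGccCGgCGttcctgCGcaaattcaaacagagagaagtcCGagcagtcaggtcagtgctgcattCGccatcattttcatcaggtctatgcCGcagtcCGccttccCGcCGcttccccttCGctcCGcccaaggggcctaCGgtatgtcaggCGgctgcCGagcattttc
Ofd1, chrX:166440705-166440954, minus strand: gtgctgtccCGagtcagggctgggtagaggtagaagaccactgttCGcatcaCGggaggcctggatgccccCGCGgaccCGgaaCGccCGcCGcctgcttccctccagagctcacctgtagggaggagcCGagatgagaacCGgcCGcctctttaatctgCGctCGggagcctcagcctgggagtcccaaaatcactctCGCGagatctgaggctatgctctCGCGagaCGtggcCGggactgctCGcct

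Gja6 (a connexin), Cltrn (collectrin, an amino acid transport partner) and Sytl5 (a synaptotagmin-like vesicle protein) have 2, 3 and 1 CG dinucleotides in the same stretch.
Gja6, chrX:160907053-160907302, minus strand: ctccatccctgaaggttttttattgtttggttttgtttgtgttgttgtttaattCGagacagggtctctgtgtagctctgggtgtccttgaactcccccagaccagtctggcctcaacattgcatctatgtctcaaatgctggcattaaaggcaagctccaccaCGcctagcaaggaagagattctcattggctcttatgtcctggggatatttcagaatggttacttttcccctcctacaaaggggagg
Cltrn, chrX:164091939-164092188, plus strand: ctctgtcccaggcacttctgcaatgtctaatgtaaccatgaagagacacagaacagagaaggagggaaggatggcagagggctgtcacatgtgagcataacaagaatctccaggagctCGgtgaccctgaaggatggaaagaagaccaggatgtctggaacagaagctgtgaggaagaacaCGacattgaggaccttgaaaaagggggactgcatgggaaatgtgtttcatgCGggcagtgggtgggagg
Sytl5, chrX:9885371-9885620, plus strand: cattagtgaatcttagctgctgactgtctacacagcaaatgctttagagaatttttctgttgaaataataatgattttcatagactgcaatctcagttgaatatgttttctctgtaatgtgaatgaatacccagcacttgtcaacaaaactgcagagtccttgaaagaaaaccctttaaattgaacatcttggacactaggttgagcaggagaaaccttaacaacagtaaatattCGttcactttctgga

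The files list chromosome X positions at which at least 1 read carried a variant base, with the reads of the B6 base and of the variant base. MEF had 411952 single-base sites with 883097 reads, and LowK had 186844 with 295254. A site held on average 2.14 reads in MEF and 1.58 in LowK, and single-read sites made up 47.4% and 67.7%. The libraries shared 37884 sites, 9.20% of the MEF list and 20.3% of the LowK list. No input library was used, so a level is coverage at listed sites and not enrichment. Reads were summed over both alleles and divided by the reads of the median 1 Mb window of the same library, 5695.5 in MEF and 1811.5 in LowK. Every ratio below is LowK over MEF on that scale. Intervals are exact 95% intervals that cover counting error only, and they are too narrow, since 1 read can cover several sites and is then counted at each.

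Along the chromosome the profile of LowK followed that of MEF closely, with a few broad exceptions. Of 168 windows of 1 Mb with sites, 159 had at least 200 reads in 1 library. The middle 50% of their ratios lay between 0.937 and 1.14, and the 5th to 95th percentiles were 0.773 and 1.44. A window was called at 1.5-fold with intervals apart: 8 were higher in LowK (5.03% of those tested) and 1 was lower (0.629%). With library totals in place of the median window, the split was 4 higher and 3 lower. With 1 site kept per 300 bp it was 3 higher and 2 lower. Only the window at 170 Mb stayed higher at sites listed in both libraries, where the other 7 had log2 ratios of 0.06 to 0.20. Such sites are equal in number in both libraries, so a difference in the number of listed sites cannot show there.

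The highest window was the last of the chromosome, at 170 Mb, with 1207 MEF and 1646 LowK reads and a ratio of 4.29 (3.98 to 4.62). Its 1 annotated gene is Asmt, which makes melatonin and lies in the pseudoautosomal region shared with chromosome Y. Only 96 MEF sites carried these reads, and 46.8% of the LowK reads fell in a single 10 kb bin. MidK stood higher again there, at 2.87 of its median window against 0.909 in LowK and 0.212 in MEF.

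The other 7 higher windows lay between 1.51 and 1.64. At 99 Mb, 7082 MEF and 3683 LowK reads gave 1.64. This window holds Efnb1, an ephrin ligand, and Eda, the signal that patterns hair and teeth. Windows at 11 and 12 Mb had ratios of 1.58 and 1.54. They hold histone H2al1 copies and Bcor, a corepressor of the Polycomb system. Windows at 73 and 74 Mb had ratios of 1.57 and 1.53 and hold 38 and 27 protein-coding genes. These include Plxnb3, L1cam, Flna and G6pdx. The window at 7 Mb, at 1.51, carries Hdac6, Tfe3, Eras, Gata1 and Foxp3. The window at 84 Mb, at 1.61, lies in the very long muscle gene Dmd and had fewer reads, 1823 in MEF and 934 in LowK. The single lower window, at 34 Mb, fell from 427 to 70 reads, a ratio of 0.515 (0.394 to 0.665). It holds copies of the Btbd35f family, whose reads can come from another copy.

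**Figure D1:**
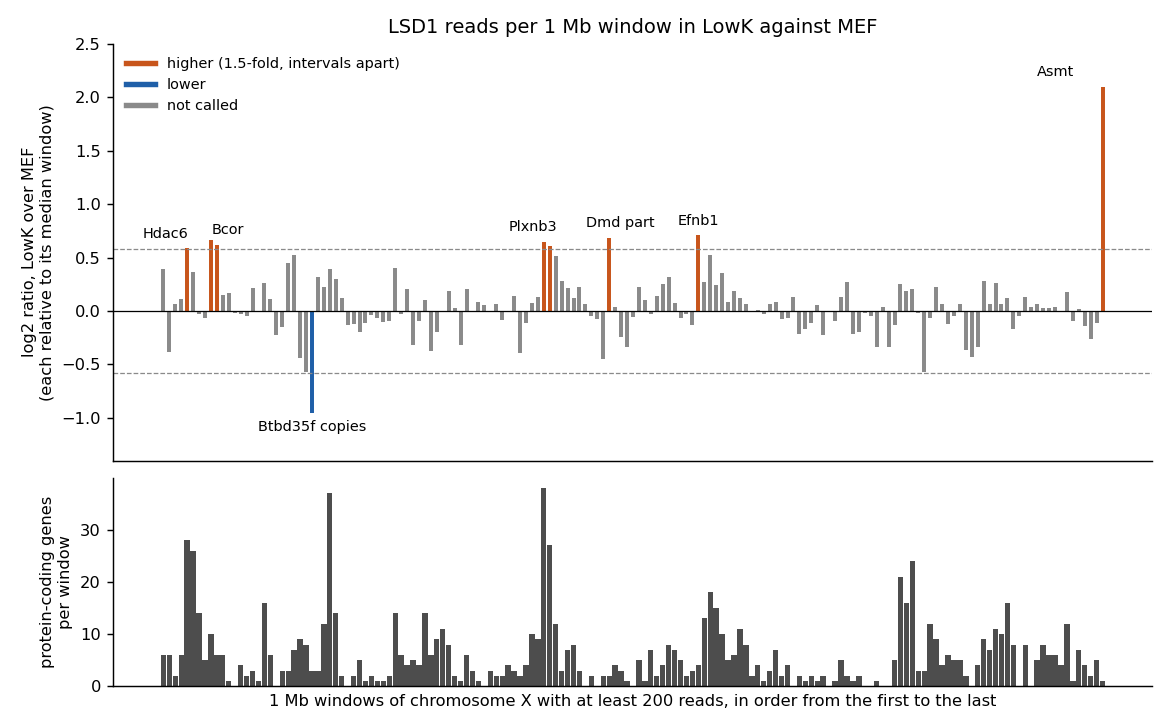
The upper panel shows the log2 ratio of LowK over MEF for each of the 159 tested windows of 1 Mb in chromosome order, with dashed lines at 1.5-fold, and the lower panel shows the protein-coding genes in the same windows. The 8 higher windows are in orange and the 1 lower window in blue, and the Asmt window at the end stands far above the rest.

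Neighbouring windows moved together over short distances. Runs of at least 3 windows past 1.15-fold numbered 5. The run above MEF at 73 to 78 Mb (1.36, 1.34 to 1.39) holds 87 protein-coding genes, and that at 99 to 104 Mb (1.36, 1.33 to 1.39) holds 60. A weaker run above MEF at 35 to 39 Mb (1.23) holds 66. The runs below MEF lay at 32 to 35 Mb (0.665), with few reads, and at 145 to 148 Mb (0.771, 0.745 to 0.797), with 17201 MEF and 4216 LowK reads and 6 protein-coding genes. The ratio of neighbouring windows had a Spearman rho of 0.311 over 155 pairs, and 0.057 for windows 2 Mb apart. Odd and even 10 kb bins of the same window, which share the libraries but no sites, gave Pearson's r of 0.567 and rho of 0.543 over 159 windows.

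Windows with many genes were higher in LowK. The median ratio was 0.967 in the 57 windows with 0 to 2 protein-coding genes and 0.993 in the 41 with 3 to 5. It was 1.06 in the 33 with 6 to 9 and 1.20 in the 28 with 10 to 38. In that last class 25 of 28 windows lay above 1, against 17 of 57 in the first. Gene number and ratio had a rho of 0.465 over 159 windows, and 0.410 when sites within 5 kb of gene starts were left out. Gene-rich windows also differ in base composition: the GC share of the reference bases at MEF sites had a rho of 0.318 with the ratio. By Pearson's r the order was the other way, 0.448 for this GC share and 0.381 for gene number. The part of base composition in the relation was not tested. At sites listed in both libraries the rho with gene number was 0.244.

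**Figure D2:**
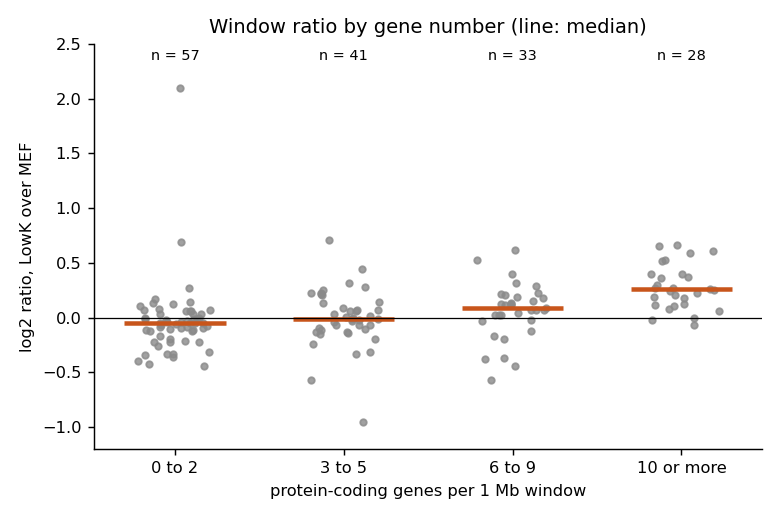
Each point is a 1 Mb window, grouped by its number of protein-coding genes, with the log2 ratio of LowK over MEF on the vertical axis and the class median as a line. The medians step from 0.967 to 1.20 on the ratio scale, with wide overlap between the classes.

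On a finer scale, 1515 of 1594 windows of 100 kb had at least 30 reads in 1 library. At 2-fold with intervals apart, 34 were higher in LowK (2.24%) and 29 lower (1.91%). With library totals the counts were 25 and 33. Runs of at least 3 tested windows past 1.5-fold, with untested windows between them passed over, were called blocks. LowK gained 9, spanning 6.1 Mb with 3.9 Mb of tested windows, and lost 7, spanning 3.2 Mb with 2.3 Mb tested. Of these, 2 gained and 3 lost blocks span untested windows, some of which went the other way. With library totals the counts were 5 and 10, and with 1 site per 300 bp 5 and 3. There were 0 gained and 0 lost blocks at sites listed in both libraries. The blocks held 2.59% and 0.833% of MEF reads, and 4.87% and 0.40% of LowK reads.

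The gained blocks hold 84 protein-coding genes, or 13.8 per Mb against 6.06 per Mb over the chromosome windows. This came from 5 blocks, with 74 genes in 2.0 Mb, while the other 4 hold 10 genes in 4.1 Mb, or 2.44 per Mb. Of their 95 gene starts, 40 are CpG-rich, meaning a GC share of at least 50% and a ratio of observed to chance CG of at least 0.6 in the 300 bases around the start. Over the chromosome 285 of 1220 starts are CpG-rich. The 7 lost blocks hold 17 protein-coding genes, 5.31 per Mb, and 0 of their 11 starts are CpG-rich. Blocks were chosen by their ratios, so their ratios are a description.

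The gained block with the most consecutive windows was that of Bcor, at 11.5 to 12.3 Mb, where Bcor is the only protein-coding gene. MEF had 6188 reads and LowK 3837, a ratio of 1.95 (1.87 to 2.03). Its 8 windows ran from 1.64 to 2.63, highest in the window that starts at 12 Mb, with 725 MEF and 606 LowK reads. The windows on either side stood at 1.36 each. Away from gene starts by over 5 kb the block still stood at 1.88, from 5913 MEF and 3539 LowK reads. Per Mb, its level was 1.36 of the median window in MEF, 2.65 in LowK and 1.0 in MidK.

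A second long block, at 7.6 to 8.3 Mb, had 5739 MEF and 3366 LowK reads, a ratio of 1.84 (1.77 to 1.92). It holds 32 protein-coding genes. They include Hdac6, a deacetylase of tubulin, Cacna1f, a calcium channel of the retina, and Gripap1, which recycles glutamate receptors. The 7 windows ran from 1.56 to 2.28. The window before it stood at 1.45 and the window after it at 1.05, so the right edge was sharp. Levels per Mb were 1.44 in MEF, 2.65 in LowK and 1.35 in MidK.

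Shorter gained blocks of well-covered sequence lay at 48.2 to 48.5 Mb (1.78), 73.5 to 73.9 Mb (1.81), 74.2 to 74.5 Mb (1.62) and 101.7 to 102.0 Mb (1.66). The first holds Bcorl1, a corepressor related to Bcor, and Elf4, an ETS factor. The second holds Atp2b3, a calcium pump, and L1cam, a neural adhesion molecule. The third holds Flna, which crosslinks actin, and Ikbkg, a subunit of the kinase that activates NF-kB. MidK levels in these 4 blocks lay between 0.963 and 1.20 of its median window per Mb, against 1.97 to 2.23 in LowK and 1.207 to 1.247 in MEF. The remaining 3 gained blocks rest on thin coverage. The block in Dmd had 313 and 273 reads, that at 24.1 to 26.2 Mb had 348 and 273 with 17 untested windows, and the third was the Asmt end.

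The lost blocks were of 2 kinds. Blocks at 86.8 to 87.1 Mb, 130.1 to 130.4 Mb and 145.2 to 145.5 Mb had ordinary MEF levels, 0.948 to 1.19 per Mb, and ratios of 0.55, 0.53 and 0.55. The first lies in Il1rapl1, a synaptic receptor gene, with 1693 MEF and 295 LowK reads. The second lies in Diaph2, a formin, with 1620 and 274. The third holds Lhfpl1 and Amot, a regulator of the Hippo pathway, with 2026 and 356. MidK levels there were 0.675, 0.623 and 0.863. The other 4 blocks had MEF levels of 0.0678 to 0.280 per Mb and lie in copies of Btbd35f and Cldn34c, so their reads are uncertain in place.

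LowK had more of its reads at gene starts than MEF. This comparison by distance to the start was chosen after the data were seen. Within 1 kb of a start lay 1.71% of MEF reads (1.68% to 1.74%) and 3.62% of LowK reads (3.55% to 3.69%). By distance the ratio was 2.23 within 1 kb and 1.20 from 1 to 2 kb. It was 1.13 from 2 to 5 kb, 1.09 from 5 to 20 kb, 1.06 from 20 to 100 kb and 0.966 beyond 100 kb. With 1 site per 300 bp, the share of LowK over that of MEF within 1 kb was 1.69 in place of 2.12, and at sites listed in both libraries 1.41.

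The ratio was higher at CpG-rich starts than at other starts. Within 1 kb of the 285 CpG-rich starts, 4412 MEF and 4357 LowK reads gave a ratio of 3.11 (2.98 to 3.24). Around the other 935 starts, 10670 and 6321 reads gave 1.86 (1.81 to 1.92), and the Asmt start alone had 472 of these LowK reads. In the 250 bases before a CpG-rich start, the level was 2.18 of the median window in MEF and 9.56 in LowK. Both libraries thus peaked there, and LowK far more. At 2000 to 2250 bases downstream the levels were 1.17 and 1.82. Around other starts MEF was flat, at 1.09 before and 1.14 after the start, while LowK reached 1.98 and 3.17.

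**Figure D3:**
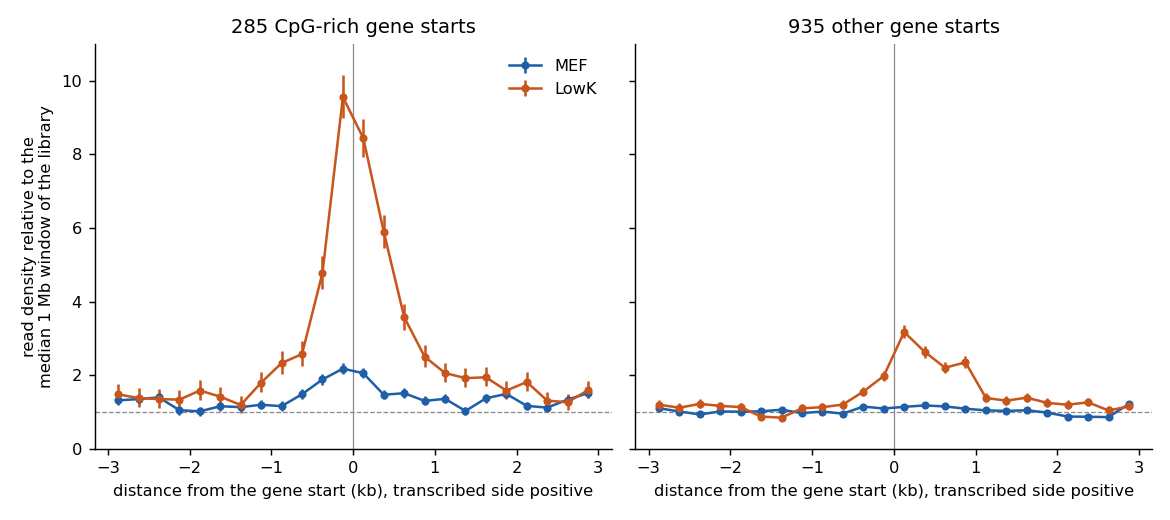
Read level, relative to the median 1 Mb window of the library, by distance from the nearest gene start in steps of 250 bases, with exact 95% counting intervals as bars. LowK reaches 9.56 before CpG-rich starts and 3.17 after other starts, against 2.18 and 1.14 in MEF.

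Single starts had few reads, with medians of 11 in MEF and 6 in LowK. Only 175 of 1220 had at least 30 reads in 1 library. At 2-fold with intervals apart, 97 of these were higher in LowK (55.4%) and 19 lower (10.9%). As a background of the same size, 2 kb tiles over 5 kb from every start were called higher in 7.39% and lower in 36.8% of 4397 tested. Of the 79 tested CpG-rich starts, 61 were higher and 0 lower. Of the 96 other tested starts, 36 were higher and 19 lower. Over all CpG-rich starts, tested or not, LowK stood above MEF at 255 of 285 (89.5%). At other starts it did so at 494 of 935 (52.8%). Among all 62823 distant tiles it did so in 42.7%. These shares do not depend on the minimum of 30 reads, which selects starts and tiles that are high in 1 library. The CpG-rich starts kept a pooled ratio of 2.67 without the 50 that had the most LowK reads, against 3.17 with them, and 2.53 with 1 site per 300 bp. The other starts had 1.91 in full, 1.74 without the top 10, 1.51 without the top 50 and 1.54 with 1 site per 300 bp.

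Ddx3x had 59 MEF, 70 LowK and 47 MidK reads within 1 kb of its start, a ratio of LowK over MEF of 3.73 (2.60 to 5.37). Hprt had 53, 65 and 42 reads, a ratio of 3.86 (2.64 to 5.65). In both genes MidK also had many reads for its smaller library. Eif2s3x had 31 MEF and 62 LowK reads, a ratio of 6.29 (4.02 to 10.01), and 0 MidK reads. Kdm6a, an H3 demethylase that escapes X inactivation, had 28, 54 and 11 reads, a ratio of 6.06 (3.77 to 9.94). Ofd1 had 29, 55 and 3 reads, a ratio of 5.96 (3.74 to 9.70). Rab9b, an endosomal GTPase whose start is just outside the CpG-rich class, had 28, 58 and 12 reads, a ratio of 6.51 (4.08 to 10.6). Thinned to 1 site per 300 bp, 5 of these 6 starts had lower ratios: 2.71 for Ddx3x, 1.99 for Hprt, 3.53 for Eif2s3x, 2.45 for Kdm6a and 3.01 for Ofd1. Rab9b had 8.14. Asmt and Cldn34c1 had the most LowK reads at a start, 472 and 172, and the Asmt ratio was 4.29, or 1.57 when thinned.

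The lower starts were all outside the CpG-rich class. Gja6 fell from 79 MEF to 2 LowK reads, a ratio of 0.08 (0.009 to 0.297), with 5 reads in MidK. Cltrn fell from 39 to 0, and Sytl5 from 36 to 2. Vegfd, a growth factor of lymphatic vessels, fell from 34 to 2, and Rtl9, a gene derived from a retrotransposon, from 31 to 1. Magea5, of a family expressed in testis, fell from 73 to 9. Thinned to 1 site per 300 bp, these starts had few reads. Gja6 had 21 and 1, Cltrn 5 and 0, Sytl5 11 and 1, Vegfd 16 and 1, and Rtl9 14 and 1. Magea5 had 18 and 4, a ratio of 0.60, under 2-fold. Lower calls made up 10.9% of tested starts against 36.8% of tested distant tiles, so such falls are not particular to starts.

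The higher and lower starts differed in base composition, which in part restates the CpG rule, met by 61 of the higher and 0 of the lower starts. The 97 higher starts had a median of 19 CG dinucleotides and 62% GC in 300 bases, and the 19 lower starts had 1 and 43%. Over all 1220 starts the medians were 7 and 51%. Outside the CpG-rich class the 36 higher starts had 9.5 and 55.2%, against 4 and 48.3% over all 935. The motif GGGNGTGG, the core bound by KLF factors, was searched on both strands of each 300-base window. It was present in 227 of 1220 starts (18.6%), in 17 of the 97 higher starts (17.5%) and in 8 of the 61 higher CpG-rich starts (13.1%). It was in 0 of the 19 lower starts, whose interval reaches 17.6%. Among CpG-rich starts not called it was in 22.3%. Of the other starts it was in 25% of the 36 higher and in 18.1% of all 935.

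Over whole genes, taken as the gene body with 5 kb on each side, 1079 of 1255 genes had at least 30 reads in 1 library. Of these, 125 were higher in LowK at 2-fold with intervals apart (11.6%) and 53 were lower (4.91%). With 1 site per 300 bp the counts were 49 and 8. Short genes had the higher ratios: protein-coding genes up to 20 kb had a median ratio of 1.30 (n = 465), those from 20 to 100 kb 1.07 (n = 249) and those over 100 kb 0.905 (n = 113). Sites near the start make up more of a short gene with its flanks, and the part of this was not tested. At sites over 5 kb from starts the median log2 ratio was 0.01 over 803 genes, against 0.16 over all tested genes, and 68 genes were higher.

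Asmt had the highest gene ratio, 454 to 771 reads or 5.34 (4.75 to 6.01). Plxnb3, a semaphorin receptor, had 100 MEF, 157 LowK and 25 MidK reads, a ratio of 4.94 (3.82 to 6.41). Its start had only 9 and 6 reads, and the rest of the gene stood at 5.30. The noncoding gene Gm34301, beside Bcor, had 89, 150 and 20 reads (5.30). Cxcr3, a chemokine receptor of T cells, had 49, 66 and 12 reads (4.24). Magix, a PDZ protein, had 111, 136 and 24 (3.85). Taf9b, a subunit of the general transcription factor TFIID, had 88, 103 and 70 (3.68). These 6 genes remained called with 1 site per 300 bp, and at sites listed in both libraries none of them was, with log2 ratios of 0.53 (Magix) to 1.09 (Taf9b). The others among the 12 highest were Gm39494, Gm38625, Gm6812, Gm5640, Gm39521 and Gm33844, at 3.35 to 4.69, and none of these was called with that thinning.

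P2ry10, a lysophospholipid receptor of lymphocytes, fell from 178 MEF to 12 LowK reads, a ratio of 0.212 (0.107 to 0.380), with 33 in MidK. Its neighbour Itm2a, a membrane protein of cartilage and T cells, fell from 108 to 12 (0.349), with 1 in MidK. Samt2b, expressed in testis, fell from 187 to 19 (0.319), and Olfr1322, an olfactory receptor, from 82 to 6 (0.230). The noncoding genes Gm15230 (117 to 9) and Gm30427 (105 to 10) fell likewise. Of the 12 lowest genes, P2ry10 and Gm15230 were still called with 1 site per 300 bp, while at sites listed in both libraries the sign of Itm2a, Samt2b, Gm15230 and Gm15142 turned. P2ry10 had 6 and 4 reads at those sites, a log2 ratio of -0.05. Gm15107 fell from 31 reads to 0.

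Genes of multicopy germline families went both ways, and their values are uncertain because a read can belong to another copy. Of 162 members 107 were tested. Higher calls numbered 14 (13.1%, against 11.6% of all tested genes) and lower calls 15 (14.0%, against 4.91%). Rtl8c had 68 and 69 reads (3.19), while Btbd35f21 had 121 and 4 (0.104) and Rhox2b 47 and 1 (0.067). At sites listed in both libraries the sign of Rtl8c and of Gm14692, the next highest, turned.

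Among the gene lists, that of pluripotency and the germline had the largest share of higher calls. Of 20 members, 9 were higher (45.0%, against 11.6% of all tested genes) and 1 was lower (5.0%, against 4.91%). The median log2 ratio was 0.68 against 0.16 over all tested genes. Eras, a RAS protein of embryonic stem cells, had 110 MEF, 133 LowK and 20 MidK reads, a ratio of 3.80 (2.93 to 4.94). Sox3, a neural and germline factor, had 86, 76 and 6 (2.78). Tfe3, a factor that opposes the exit from pluripotency when nuclear, had 160, 124 and 22 (2.44). Dusp9, a phosphatase that dampens ERK signalling, had 122, 94 and 44 (2.42). Rhox6, Trap1a, Rhox5 and Esx1 were also higher, at 2.07 to 2.61. Eras and Tfe3 lie in the gained block at 7.6 to 8.3 Mb, and Dusp9 in that at 73.5 to 73.9 Mb. Their calls thus repeat block gains given above. The first block also holds Hdac6, Syp and Plp2 of other lists, and the second Plxnb3 and Idh3g. Rhox5 and Rhox6 belong to a multicopy family, so their reads are uncertain in place. Tex13a, a testis gene, was lower with 77, 9 and 29 (0.367). Nr0b1, an orphan receptor of embryonic stem cells, had 94 and 21 reads (0.70) and was not called. At sites listed in both libraries the list's median log2 ratio was -0.04, against 0.03 over all genes there.

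In the lists of this paragraph, higher calls made up 5.56% to 15% of members, around the 11.6% of all tested genes. Those counts are thus not particular to the lists. Of 26 chromatin and transcription regulators, Hdac6 (2.23) and Bcor (2.09) were higher and 0 lower. In the list of 24 fibroblast, matrix and adhesion genes, Plxnb3, Plp2 (2.60) and Flna (2.30) were higher and Itm2a lower. G6pdx (2.12), Rpl10 (2.13) and Idh3g (2.01) were higher among 20 housekeeping genes. Of 16 blood and immune genes, Cxcr3 and Plp2 were higher and P2ry10 and Itm2a lower (12.5%, against 4.91% of all tested genes). The synaptic vesicle gene Syp (2.13) was the only higher member of 18 neural genes, and their median log2 ratio was -0.26.

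At the X-inactivation centre the gene-level ratios ran from 0.434 to 2.23. Xist, the RNA that coats the silent chromosome, had 228 MEF, 72 LowK and 53 MidK reads, a ratio of 0.99 (0.75 to 1.30). Jpx, an activator of Xist, had 221 and 47 (0.67, 0.48 to 0.92). Ftx, another noncoding neighbour, had 577 and 209 (1.14), and Rlim, a ubiquitin ligase that promotes Xist expression, 256 and 97 (1.19). Nap1l2, a histone chaperone gene, had 58 and 8 (0.434, 0.179 to 0.912). Of the 10 members found, Zcchc13 was the only one called, higher at 2.23 (10%, against 11.6% of all tested genes). Of 13 genes that escape X inactivation, 4933407K13Rik, the gene that spans the Dxz4 repeat, was higher with 629, 545 and 134 reads (2.72, 2.42 to 3.06). Eif2s3x was higher too, at 2.15, and 0 were lower. Higher calls made up 15.4% of this list, near the 11.6% of all tested genes. Firre, a noncoding locus of chromosome architecture, had 688 and 364 reads (1.66, 1.46 to 1.89).

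Starts and gene bodies went different ways within many genes. Over all 1043 genes with a start and reads, the summed ratio was 2.27 (2.21 to 2.32) within 1 kb of the starts and 0.982 (0.975 to 0.989) over the rest. In the pluripotency list the starts stood at 3.53 (2.90 to 4.31) and the rest at 1.22, with 13 of 13 starts above 1. Chromatin regulators had 3.16 and 1.09, and 20 of 23 starts above 1. Housekeeping genes had 2.86 and 1.04, with 17 of 20. Fibroblast genes also had 2.86 at starts, with 19 of 22, and 0.878 over the rest. Neural genes had 2.39 and 0.806. The X-inactivation centre had the lowest start ratio, 1.27 (0.964 to 1.66), with 193 and 78 reads, and its interval reached below 1. Its starts differed: Xist had 7 and 11 reads (4.94, 1.75 to 15), Jpx 34 and 4 (0.37, 0.095 to 1.04) and Ftx 39 and 5 (0.40, 0.124 to 1.02). The intervals of Jpx and Ftx reach above 1. Over all genes, 61.0% of starts stood above 1.

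**Figure D4:**
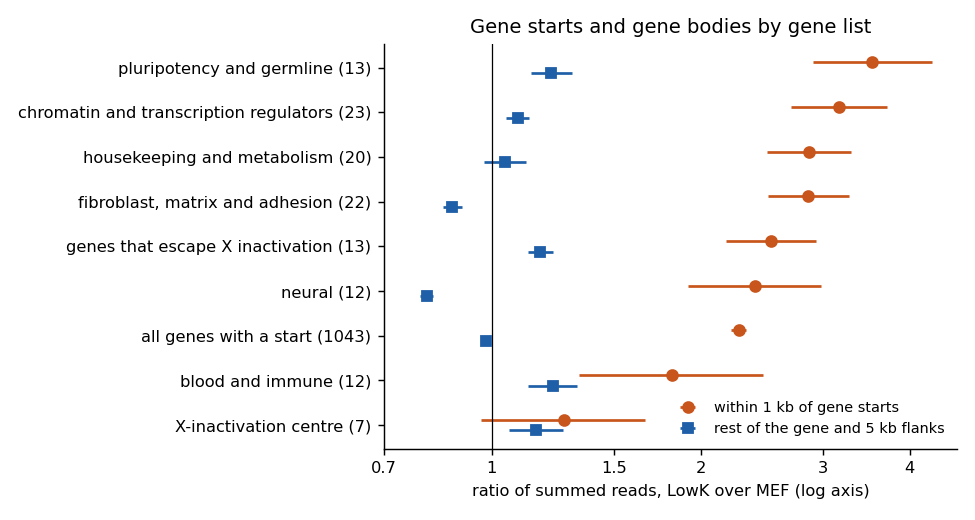
Ratio of LowK over MEF of the summed reads within 1 kb of gene starts (circles) and over the rest of the gene with its flanks (squares), by gene list, with exact 95% counting intervals on a log axis and the number of genes in brackets. Starts stand right of the rest in every list drawn, and the pair overlaps at the X-inactivation centre.

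Kdm6a showed the contrast plainly, with a ratio of 6.06 at its start and 0.65 (0.53 to 0.79) over the rest, from 566 MEF and 117 LowK reads. Hprt had 3.86 and 0.54. The proteoglycan gene Gpc4 had 14 and 35 start reads (7.86, 4.12 to 15.8) and 0.855 over the rest. Srpx, a sushi-repeat matrix protein, had 17 and 49 start reads (9.06, 5.13 to 16.8) and 0.802 over the rest. Prps1, an enzyme of nucleotide synthesis, had 17 and 44 (8.14) and 0.924. Bcor showed no such contrast: its start had 11 and 6 reads, at 1.72 (0.52 to 5.06), and the rest stood at 2.10 (1.90 to 2.30). Eras had 2.33 (1.24 to 4.31) at its start and 4.19 (3.08 to 5.73) over the rest, and these intervals overlap. Itm2a had 5 and 8 start reads (5.03, 1.45 to 19.5) and 103 and 4 over the rest (0.122). The start of Gata1, the erythroid factor, had 29 MEF reads and 1 LowK read, under the minimum for a call, while the rest stood at 1.52.

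Both alleles were compared with measures that meet the listing rule in different ways, since a site is listed only with a variant read. A first measure took sites with 5 to 20 reads, at least 2 on both alleles and no tie, 1 site per 300 bp. The variant base outnumbered the B6 base at 48.5% of 11554 such sites in MEF (47.5% to 49.4%) and at 45.3% of 1827 in LowK (43.0% to 47.6%). These intervals overlapped at 47.5% to 47.6%. In 13 of 17 bins of 10 Mb with at least 20 sites in both libraries LowK lay lower, and the intervals were apart in 1, at 150 to 160 Mb, with 49.4% in MEF and 34.7% in LowK. On this measure neither library leaned far to 1 allele in most bins. At sites listed in both libraries the shares were 54.7% and 57.7%, with LowK the higher.

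Sites with no B6 read were then compared at equal read number per site, a measure chosen after the data were seen. A site of 4 reads lies further above the mean depth in LowK (1.58 reads) than in MEF (2.14). Equal read number thus does not make the sites alike, and the part of this was not tested. At exactly 4 reads, of which at least 2 were variant, 38.3% of 33534 MEF sites had variant reads only (37.8% to 38.9%). In LowK it was 28.4% of 6122 (27.2% to 29.5%). Equal chance for both alleles would give 9.09%, and both libraries lay well above that. LowK was lower in 17 of 17 bins with at least 20 such sites in both libraries, with intervals apart in 12. The last bin, from 170 Mb, had 0% of 6 MEF sites and 25% of 8 LowK sites. The difference held at 3 reads, 58.8% against 51.0%, and at 5 reads, 26.6% against 17.2%. At shared sites with 4 reads it was 42.1% against 34.5%.

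**Figure D5:**
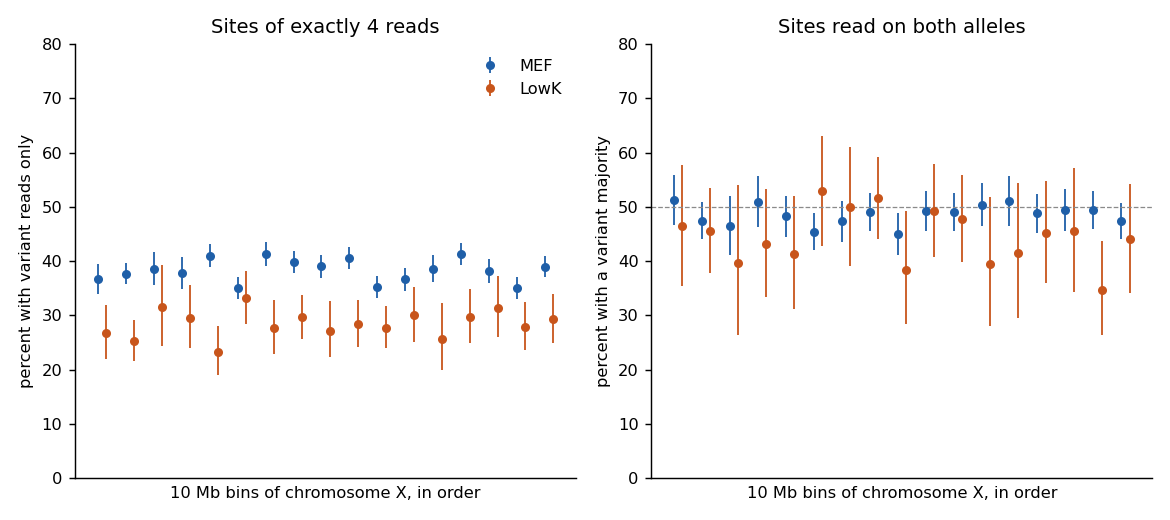
Percent of sites by 10 Mb bin in chromosome order, with exact 95% intervals: sites of exactly 4 reads with variant reads only (left) and sites read on both alleles with a variant majority (right, dashed line at 50%). LowK lies below MEF in all 17 bins on the left and in 13 on the right, where most intervals overlap.

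The plain share of variant reads went the other way, 85.8% in MEF and 90.2% in LowK. Single-read sites, which can only be variant, made up more of the LowK list, and the part of depth in this share was not tested. Where both alleles were read the shares were 59.9% and 58.9%. In 156 of 162 windows of 1 Mb the plain share was higher in LowK, by a median of 4.78 percentage points. At 10 points with intervals apart, 4 windows were higher (2.47%) and 1 lower (0.617%). The higher windows were at 4 Mb (63.8% to 83.8%), 33 Mb (72.8% to 87.3%), 54 Mb (74.9% to 88.7%) and 55 Mb (76.6% to 89.1%). The lower window, at 148 Mb, went from 85.4% of 185 reads to 57.9% of 95. Of these LowK reads, 75.8% lay in 1 bin of 10 kb, and 72 lay within 1 kb of the start of Luzp4.

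In the gained blocks the variant read share was 83.3% in MEF and 84.5% in LowK, and in the rest of the chromosome 85.9% and 90.4%. The pooled block shares include the Asmt block, at 48.4% in MEF and 54.1% in LowK. It supplied 1207 of 22877 MEF reads and 1646 of 14375 LowK reads. The Bcor block had 84.5% and 87.8%, and of the 9 blocks only that in Dmd was lower in LowK (88.2% and 85.3%). Variant majorities in the gained blocks were 45.8% of 345 sites in MEF and 45.5% of 132 in LowK, and 48.5% and 45.0% in the rest. Sites of 4 reads with variant reads only were 39.6% and 29.6% in gained blocks, and 38.3% and 28.2% in the rest. The lost blocks had too few LowK sites, 9 and 23, to be read. At CpG-rich starts the variant share of reads was 82.3% in MEF and 80.1% in LowK, while over 5 kb from starts it was 86.1% and 90.8%. Within 1 kb of CpG-rich starts the ratio of LowK over MEF was 5.32 for B6 reads and 2.92 for variant reads. B6 reads enter the lists more readily where depth is higher, so these ratios do not compare the alleles.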

How the data were processed

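LSD1 chromatin was sequenced from 3 samples, and the files cover chromosome X. The submitters' processing notes name BWA and the build mm10, and the series' design text names bcftools mpileup for the variant calls. Tool versions, filters and any removal of duplicates are not stated in those sources. Per the file headers, the authors deposited counts of B6 and variant reads for each listed site. They also deposited a reliability score for each call, used in 1 alternative. Groups came from the sample titles.

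Single-base sites were kept; other entries were 6.97% of the MEF list and 6.13% of the LowK list. Reads were summed in windows of 1 Mb and 100 kb, per gene with 5 kb flanks and within 1 kb of starts, using RefSeq tables of GRCm38.p6 (1255 genes, 1220 starts). Ratios have exact conditional binomial intervals, levels exact Poisson intervals and shares Clopper-Pearson intervals, at 95%. Calls needed the stated fold, intervals apart and at least 200 reads (1 Mb) or 30 reads in 1 library. Blocks were runs of at least 3 windows. The text names up to 8 windows, 6 blocks and 12 genes in each direction, the 3 highest and lowest multicopy genes, list members, and starts chosen after their values were seen, as were the remaining blocks. Some list members are not reported here. Genes not found were Cnbp2, Tsix, Dxz4 and 2010000I03Rik. The members and lists were chosen with earlier results of these data known. Calls were run on simulated gene counts with 3-fold changes in 200 of 1255 genes. All 100 raised and 100 lowered genes were called, with 3 wrong calls. Those counts were independent and scaled to library totals. In the data 1 read can count at several sites and the scale is the median window, so the simulation does not test the real calls. Python 3.11.15, pandas 2.3.3, NumPy 2.4.6, SciPy 1.17.1 and matplotlib 3.10.9 were used. Alternatives changed the scaling, thinning, alleles, site lists, thresholds, window edges and depth limits.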

Additional observations from a re-analysis of the deposited data

How the results depend on the processing

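No paired analysis was possible because each group has 1 library. Counts of windows, blocks and genes depended on how sites were counted. For 1 Mb windows, 8 higher and 1 lower became 4 and 3 when scaled to the library total. They became 3 and 2 with 1 site per 300 bp, and 3 and 0 by the number of sites in place of reads. They became 16 and 14 at a lower fold threshold and 1 and 0 at 2-fold. Higher windows were 1 at sites listed in both libraries and 5 with edges shifted by 500 kb, and lower windows were 2 away from gene starts. For 100 kb windows, 34 higher and 29 lower became 15 and 8 with 1 site per 300 bp, 7 and 1 at sites listed in both, 12 and 2 by number of sites, and 122 and 126 at 1.5-fold. The lower count was 18 with variant reads only and 18 at a minimum of 100 reads. For blocks, 9 gained and 7 lost became 5 and 3 with 1 site per 300 bp, 0 and 0 at sites listed in both, and 2 and 0 with at least 5 windows. Gained blocks were 5 with library totals, and lost blocks 3 by number of sites. For genes, 125 higher and 53 lower became 49 and 8 with 1 site per 300 bp, 13 and 1 at sites listed in both, 44 and 16 by number of sites, and 64 and 35 at a minimum of 100 reads. Away from starts 68 genes were higher.

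At sites listed in both libraries the number of sites cannot differ, so only reads per site can. There the log2 ratio of 6 named genes reversed: Gm15230 (0.53), Samt2b (0.21), Gm15142 (0.53), Itm2a (1.53), Rtl8c (-0.47) and Gm14692 (-0.20). List medians were 0.10 for housekeeping, -0.064 for multicopy and -0.036 for pluripotency genes, against 0.033 over all genes. The rho with gene number was 0.244.

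The share within 1 kb of starts, 2.12 for LowK over MEF, was 1.32 within 5 kb, 1.98 with variant reads only, 1.69 with 1 site per 300 bp, 1.41 at sites listed in both, 1.93 without the deepest 1% of sites and 1.63 by number of sites. It stayed above 1 in these 6 alternatives.

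The variant majority in MEF and LowK was 54.7% and 57.7% at sites listed in both, 59.0% and 58.5% at a reliability of at least 20, and 45.3% and 38.8% at 8 or more reads. The variant read share was 59.9% and 58.9% with reads of both alleles, 84.2% and 90.4% at sites listed in both, 86.1% and 91.1% with 1 site per 300 bp, and 87.0% and 91.7% without the deepest 1% of sites. The causes of these differences between settings were not tested. Library totals shifted all log2 ratios by -0.07. By the limits set, 64 alternatives for comparisons moved and 119 did not. For single genes, windows or sites, 75 alternatives moved, 6 reversed and 187 moved by less than the limits. With 1.58 reads per LowK site, a single gene start is near the limit of what this depth can show.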
